A study of Mus musculus with 2 samples.

Results

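The fibulins are a family of secreted glycoproteins of the extracellular matrix, and all 7 family members named by the selection (Fbln1, Fbln2, Fbln5, Fbln7, Efemp1, Efemp2 and Hmcn1) were looked up on arrays that compared the wall of the mouse aortic arch with that of the central thoracic aorta. A probe belonged to the family if its gene name, an older synonym or its RefSeq accession in the array files led to one of these genes, which gave 11 probes of 41174 on the array. The family was chosen by measured values, since results of this same arch-over-thoracic contrast were known when it was picked, so the ratios below are descriptions and carry no test. Each of the 7 genes had at least 1 probe. Of these, 6 genes with 8 probes passed the filter on dim signals, among 21367 genes or transcripts that did, and Hmcn1 did not.

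The arch pool came from the aortic root, the arch and the proximal 2 mm of the thoracic aorta, a region prone to atherosclerosis. The central thoracic pool came from the following 6 mm, a resistant region. Each pool combined the RNA of 6 C57Bl/6 mice labelled WT (3 males and 3 females, aged 16 weeks), whose aortas had been perfused with Triton X-100, a detergent, to strip the endothelium, and then divided. There was 1 RNA pool per region, and both pools were hybridised together on 2 Agilent arrays, each read in 2 colours, with the dyes exchanged. Cy5 marked the arch on array 1 and Cy3 marked it on array 2. With 1 pool per region there was no biological replicate check: the arrays repeat the labelling and hybridisation of the same RNA, and the figure after ± is how far each array lay from their mean.

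Fibulins carry repeated calcium-binding modules related to epidermal growth factor and end in a shared fibulin module, and members of the family bind elastin, microfibrils, fibronectin, proteoglycans and basement membrane proteins. Efemp2 (fibulin-4) and Fbln5 (fibulin-5) are needed for the assembly of elastic fibres in the mouse, and loss of either leaves the mouse aorta tortuous. The aortic wall stores its recoil in concentric elastic layers made by smooth muscle cells, so the family is well known in this tissue.

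Depth on these arrays is signal over background. The scanner software marked 71.3% to 81.5% of the gene spots in a channel as well above background. All 6 measured fibulins carried that mark for arch and thoracic RNA alike on each array, so none entered through 1 region alone, and 0 fibulin spots were saturated. The study presents this tissue as smooth muscle, and all 10 smooth muscle markers were measured, with a median log2 ratio of −0.09 (range −0.22 to 0.06) and 0 called. Of 10 endothelial markers 9 were still measured after the detergent, with a median of 0.06 (range −0.16 to 0.26) and 0 called. Some were dim: Pecam1, Cdh5 and Nos3 lay below the median gene spot of 525 to 528 processed units in every channel. Cdh5 carried the background mark on both arrays for the thoracic pool only.

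Calls required a ratio of arch over thoracic aorta of at least 1.5-fold, in 1 direction, on each array. By this rule Fbln7 was called lower in the arch and Efemp1 higher, and 4 of the 6 measured fibulins were not called. In all, 0.487% of the 21367 genes were called, 0.257% higher and 0.229% lower. Higher calls made up 52.9% of all calls, and 27.2% where each array was centred on its median in place of loess. Since the family was picked with this contrast known, nothing is read from its share. Fbln7 was the lowest of the 6 at a log2 ratio of −1.49 ± 0.08, while Efemp1 (0.77 ± 0.04), Fbln5 (0.65 ± 0.10), Fbln1 (0.48 ± 0.04) and Fbln2 (0.42 ± 0.03) were above 0 on both arrays. Efemp2, at −0.04 ± 0.12, had opposite signs on the arrays. The median over the measured members was 0.45, with 4 above 0 and 2 below, against a median of 0.00 over all genes, 51.5% of which were above 0.

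The promoters of both called genes are shown because these genes were the members that passed the call rule, in opposite directions. They are the 250 bases before the start of each gene in RefSeq (build GRCm38.p6, from a table that held promoters of all 7 members), written 5′ to 3′ on the gene's strand. Capitals mark matches on either strand to GGGCGG, a GC box, and to TGANTCA, a loose pattern for AP-1 factors in which N is any base.
Fbln7 (chr2:128863682-128863931, plus strand): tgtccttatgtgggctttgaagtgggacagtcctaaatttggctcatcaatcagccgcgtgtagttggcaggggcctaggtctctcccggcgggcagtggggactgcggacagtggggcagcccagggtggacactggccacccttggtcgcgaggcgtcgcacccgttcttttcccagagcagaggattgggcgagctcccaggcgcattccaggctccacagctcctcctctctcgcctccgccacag
Efemp1 (chr11:28852955-28853204, plus strand): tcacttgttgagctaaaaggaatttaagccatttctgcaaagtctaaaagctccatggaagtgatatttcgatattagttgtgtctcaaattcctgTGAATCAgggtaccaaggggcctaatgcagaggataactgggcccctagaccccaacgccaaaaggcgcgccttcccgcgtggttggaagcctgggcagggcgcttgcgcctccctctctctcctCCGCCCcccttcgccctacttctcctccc
The Fbln7 window held 0 matches to any of 5 motifs that were searched on both strands. These were the TATA box TATAAA, the GC box GGGCGG, the SMAD-binding element CAGAC, the loose AP-1 pattern TGANTCA and the CArG box. The Efemp1 window held 1 match to GGGCGG and 1 to TGANTCA, which do not overlap. In windows of this length, 32.7% of all 32851 promoters held the GC box, 6.75% the loose AP-1 pattern and 42.2% the SMAD-binding element. The TATA box was held by 12.4% and the CArG box by 1.47%. Neither the TATA box nor the CArG box was found in any of the 11 windows of the family. The G and C content was 63.2% for Fbln7 and 53.6% for Efemp1, with a median of 52.4% over all promoters. These matches describe the letters of the windows, and binding was not measured.

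**Figure D1:**
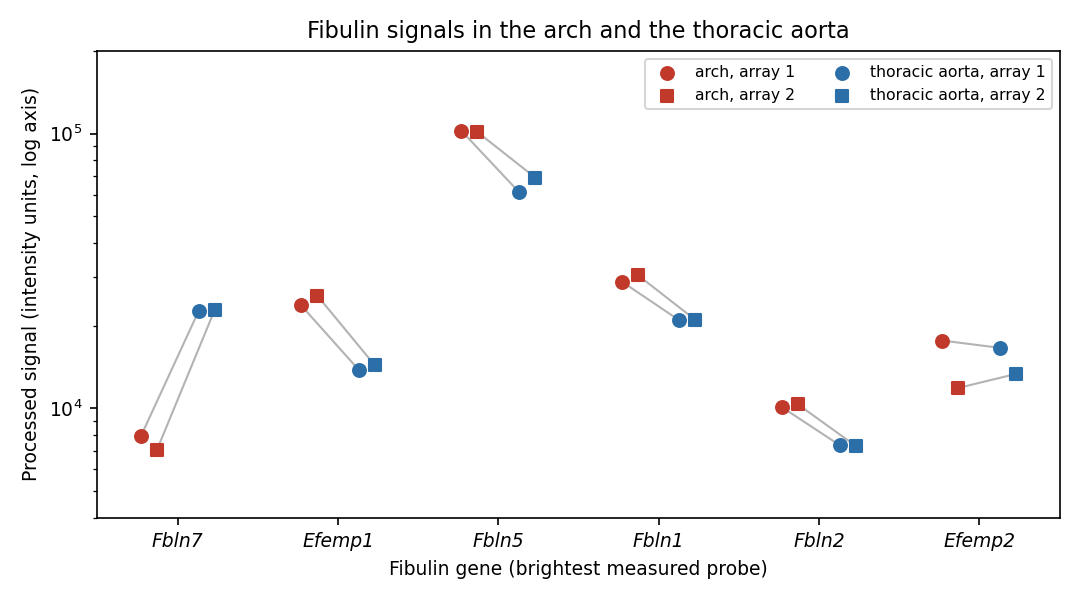
Processed signals (intensity units, log axis) of the brightest measured probe of each of 6 fibulin genes, in the arch (red) and the thoracic aorta (blue), on array 1 (circles) and array 2 (squares), with a line joining the regions of an array. Fbln7 lies lower in the arch on both arrays, Efemp1, Fbln5, Fbln1 and Fbln2 lie higher, and the lines of Efemp2 slope opposite ways.

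Fbln7 encodes fibulin-7, an adhesion protein first described in mouse teeth that binds fibronectin and cells. Its single probe, which carries the older name 1600015H20Rik in the array files and was matched by accession, had processed signals of 7932 and 7067 intensity units in the arch on arrays 1 and 2, against 22603 and 22807 in the thoracic aorta. The processed signals are those of the scanner software, corrected for background and dye. Both arch values were below both thoracic values, and the ranges did not overlap. The share of all genes without such overlap is not given here, so a lack of overlap only describes the gene named. Before any dye normalisation the spot stood 467 (Cy5) and 405 (Cy3) units above its local background in the arch, against 1555 (Cy5) and 1318 (Cy3) in the thoracic aorta, so the order held within each dye. The log2 ratio was −1.41 on array 1 and −1.57 on array 2, a 2.82-fold lower level in the arch, and Fbln7 had rank 8 from the lowest among 21367 genes. The scanner software's own ratios were −1.51 and −1.69, with its error model giving 0.20 and 0.21 on the log2 scale. With 1 probe, no second sequence of the gene was available to set beside it.

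Efemp1 encodes fibulin-3, a matrix protein of connective tissue that binds the metalloproteinase inhibitor Timp3. Its probe had processed signals of 23691 and 25747 units in the arch, against 13797 and 14333 in the thoracic aorta. The lowest arch value was above the highest thoracic value. The log2 ratio was 0.73 on array 1 and 0.81 on array 2, a 1.70-fold higher level in the arch, at rank 32 from the highest. The scanner software's ratios were 0.78 and 0.85, with an error of 0.17 on each array. Of the called members Efemp1 lay nearer to the 1.5-fold line (0.58 on the log2 scale). With median centring its mean was 0.60 ± 0.04 and it was not called.

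Fbln5 encodes fibulin-5, which binds integrins through an RGD sequence and ties lysyl oxidase-like 1 to elastin. Its brightest probe had processed signals of 102224 and 101153 units in the arch, against 61142 and 69146 in the thoracic aorta, so the groups did not overlap. The log2 ratio was 0.75 on array 1 and 0.55 on array 2, which put array 2 just under the 1.5-fold line and left Fbln5 uncalled despite a mean ratio of 1.57-fold (rank 53 from the highest). The net signal above local background was 6180 units in Cy5 and 5335 in Cy3 for the arch, against 4814 in Cy5 and 3379 in Cy3 for the thoracic aorta. Both dyes therefore placed the arch higher, by different amounts.

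The other probes named for Fbln5 were dim. Probe A_52_P278336 had 396 and 266 processed units in the arch and 366 and 186 in the thoracic aorta, and was well above background in the thoracic pool on array 1 only. Its log2 ratio was 0.08 ± 0.02, and 0.30 with a background offset of 0. The scanner software gave it 0.12 and 0.52 with errors of 0.72 and 1.09, wider than either ratio. Probe A_52_P288050, which the files name Fbln5 on a cDNA clone, was not well above background in either pool on either array, and its ratio was not used. As the mean of both kept probes Fbln5 measured 0.36 ± 0.04, so its value rests on the bright probe.

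**Figure D2:**
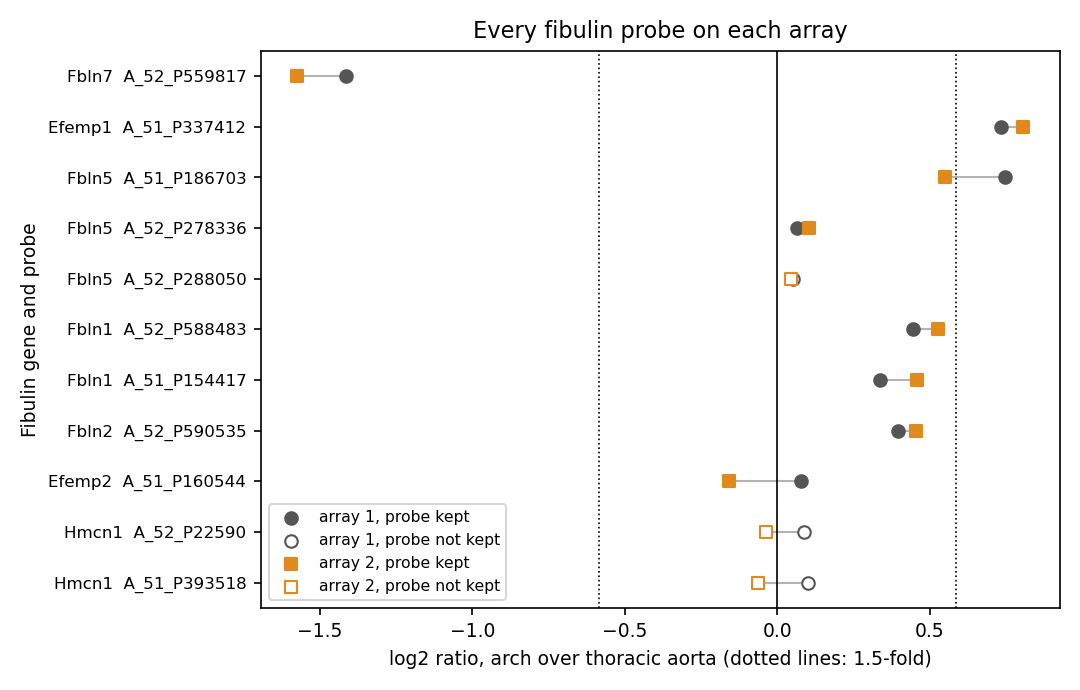
Log2 ratio of arch over thoracic aorta for each of the 11 fibulin probes on array 1 (circles) and array 2 (squares). Open symbols are probes that failed the filter on dim signals, and dotted lines mark 1.5-fold. Fbln7 lies at −1.41 and −1.57, Efemp1 beyond the line on both arrays and Fbln5 on array 1 only.

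Fbln1, encoding fibulin-1 of vessel walls and basement membranes, had probes that were both well above background. The brighter had processed signals of 28944 and 30556 units in the arch, against 20899 and 20972 in the thoracic aorta, and the other had 6621 and 7950 units in the arch, against 5000 and 5510. For neither probe did the regions overlap. Their log2 ratios were 0.48 ± 0.04 and 0.40 ± 0.06, apart by about as much as the arrays differed. The brighter probe had rank 105 from the highest, and Fbln1 was not called.

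Fbln2 encodes fibulin-2, which binds fibronectin and fibrillin and in mice acts with Fbln5 in forming the inner elastic lamina. Its probe had 10102 and 10339 processed units in the arch, against 7348 and 7303 in the thoracic aorta, with no overlap. The log2 ratio was 0.39 and 0.45 on the arrays (1.34-fold, rank 138 from the highest), and it was not called. The scanner software's ratios were 0.46 and 0.50.

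Efemp2 encodes fibulin-4, which brings lysyl oxidase to tropoelastin. Its probe had 17659 and 11873 processed units in the arch, against 16607 and 13348 in the thoracic aorta, and the groups overlapped. Array 1 gave a log2 ratio of 0.08 and array 2 one of −0.16, while the scanner software's error was 0.16 on each array. No direction can be given for Efemp2 in these pools, although its spot was well above background.

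Hmcn1 encodes hemicentin-1, a very large member of the immunoglobulin superfamily that ends in a fibulin module. Its brighter probe had 152 and 144 processed units in the arch, against 119 and 144 in the thoracic aorta, and the other had 128 and 160, against 59.1 and 211. All of these signals lay below the median gene spot of 525 to 528 units. In neither region did a probe pass the background flag on both arrays, so no fold is given, and a difference would not have been detectable at this signal.

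**Figure D3:**
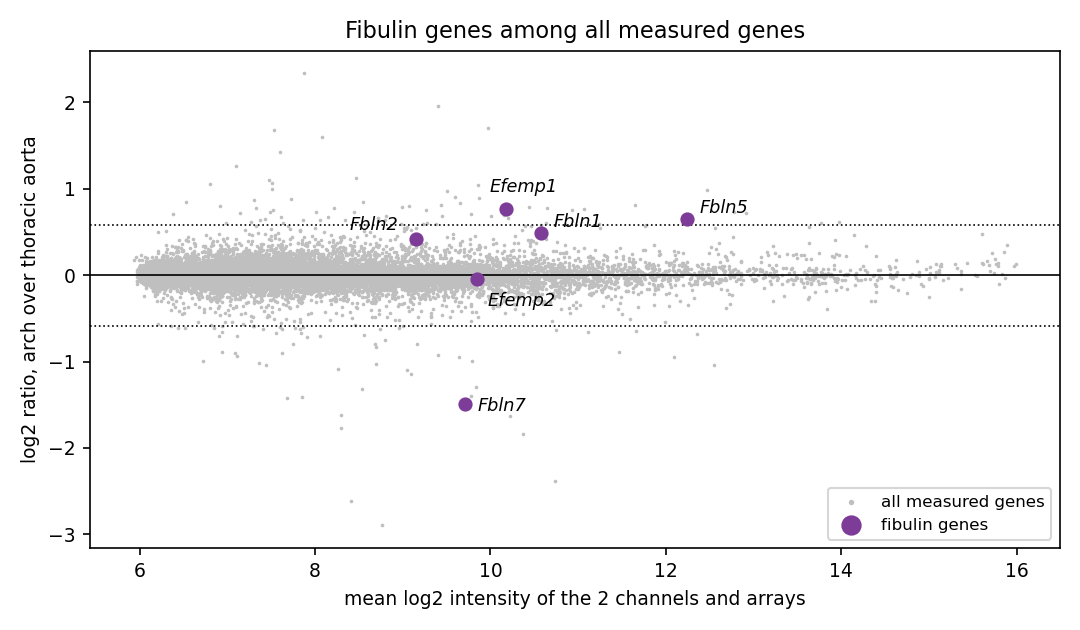
Log2 ratio of arch over thoracic aorta against mean log2 intensity for 21367 genes (grey) and the 6 measured fibulins (purple), with dotted lines at 1.5-fold. Fbln7 sits at −1.49 far below the band of other genes, and 4 fibulins sit near its upper edge.

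The order of the ratios was Efemp1, Fbln5, Fbln1, Fbln2, Efemp2 and Fbln7, from highest to lowest. Efemp1 and Fbln5 are neighbours whose array values overlap (0.73 and 0.81 against 0.55 and 0.75), and so are Fbln1 and Fbln2 (0.44 and 0.53 against 0.39 and 0.45). Fbln5 and Fbln1 did not overlap but came close on array 2, at 0.55 against 0.53. Fbln2 and Efemp2 stood apart on both arrays, and so did Efemp2 and Fbln7. Processing moved the sizes, and Fbln7 stayed the lowest in every setting. On array 1 alone Fbln5 (0.75) lay above Efemp1 (0.73). As the mean of its kept probes Fbln5 (0.36) lay below Fbln1 (0.44) and Fbln2 (0.42). With an offset of 0, Fbln7 measured −1.59 ± 0.09 and Efemp1 0.81 ± 0.03. With median centring Fbln7 measured −1.66 ± 0.14, Fbln5 0.47 ± 0.25, Fbln1 0.32 ± 0.05 and Fbln2 0.26 ± 0.02.

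**Figure D4:**
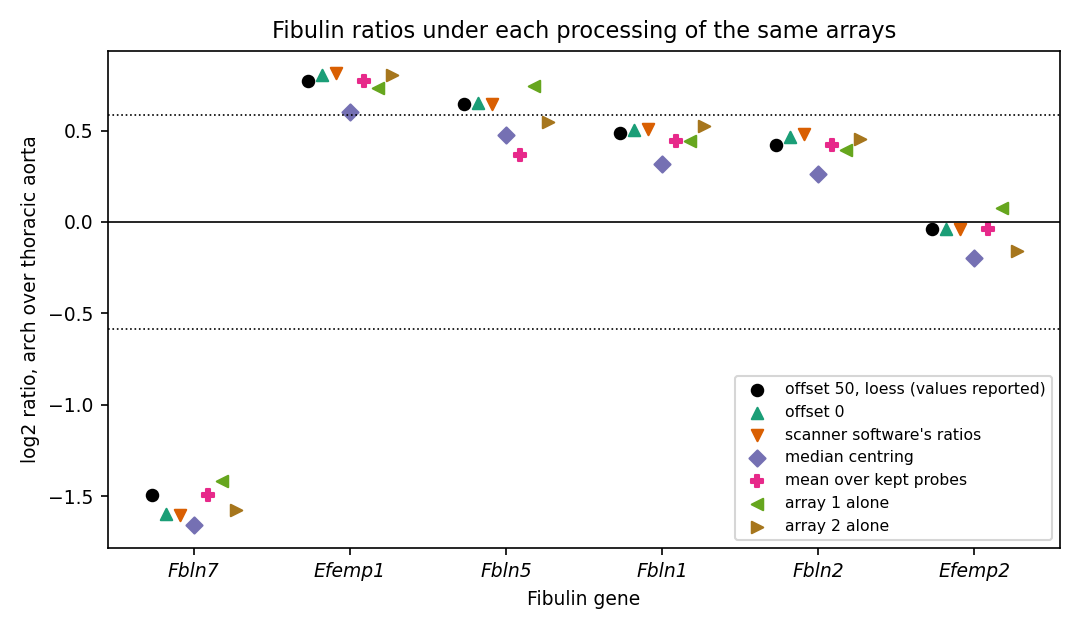
Log2 ratio of arch over thoracic aorta of the 6 measured fibulins under 7 ways of processing the same arrays, with dotted lines at 1.5-fold. Fbln7 lies between −1.41 and −1.66, Efemp1 lies at 0.60 with median centring, Fbln5 at 0.36 as the mean of its probes, and Efemp2 takes both signs.

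The genes most like the called members were found by distance over the pair of array ratios, among named genes well above background in both regions. Nearest to Fbln7 were Mup4, of the major urinary proteins (−1.40 ± 0.08, distance 0.13), the paired-box factor Pax1 (−1.43 ± 0.18, distance 0.17) and the LIM-domain protein Fhl2 (−1.32 ± 0.11, distance 0.25). A second Fhl2 probe measured 0.00, so its probes disagree. Nearest to Efemp1 were Smim3 (0.78 ± 0.03), the deiodinase Dio2 (0.76 ± 0.02) and the collectin Colec11 (0.78 ± 0.06), at distances of 0.02 to 0.03. Likeness over 2 arrays of the same pools rests on size alone.

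The proteins that fibulins bind or assemble were described as lists. Of 13 genes for elastin, microfibrils and associated proteins 1 was called higher and 0 lower, with 12 above 0 and a median of 0.04 (−0.03 with median centring). The called gene was Ltbp2, a microfibril-bound member of the latent TGF-beta binding protein family. Its processed signals were 5899 and 5475 units in the arch, against 2589 and 3252 in the thoracic aorta (0.78 ± 0.16), but another Ltbp2 probe measured −0.03. Mfap4, which binds elastic fibres, had 116974 and 128059 units in the arch, against 82961 and 85804 in the thoracic aorta, a ratio of 0.54 ± 0.04 that was not called. Mfap2, a microfibril glycoprotein, had a log2 ratio of 0.45 ± 0.01, with a dimmer probe at 0.07. Elastin itself, named after its values were seen because fibulins assemble it, overlapped between the regions, with 3348 and 4523 units in the arch and 4587 and 4358 in the thoracic aorta (−0.16 ± 0.21).

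The lysyl oxidases, which cross-link elastin and collagen, had 0 of 5 members called and a median of −0.03. Loxl1, a partner of Fbln5, measured 0.15 ± 0.14, Lox, a partner of Efemp2, −0.10 ± 0.13, and Loxl2 −0.32 ± 0.02 (−0.12 at another probe). Loxl2 thus had the lowest ratio of the list, and the arrays differed in sign for Lox.

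Among other matrix ligands of fibulins 16 of 19 genes were measured, with 8 above 0, a median of −0.03 (−0.19 with median centring), 0 called higher and 1 called lower. That gene was Fn1, encoding fibronectin, with 2030 and 2221 units in the arch, against 3994 and 3881 in the thoracic aorta (−0.67 ± 0.05). Its 3 kept probes ran from −0.67 to 0.10, so they disagree. The laminin chain gene Lamb1 measured 0.47 ± 0.20 and the proteoglycan Vcan −0.39 ± 0.05, with another Vcan probe at 0.16. The fibronectin probe and Fbln7, whose product binds fibronectin, were both lower in the arch, while fibulin-1 and fibulin-2, which also bind it, measured above 0.

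Integrin subunits that bind fibulin-5 or fibronectin had 0 of 7 called and a median of 0.01 (−0.02 with median centring). Itgb3 measured 0.27 ± 0.04 (−0.16 at another probe), Itga9 −0.24 ± 0.01 (−0.34 at another) and Itgav 0.10 ± 0.05 (0.07 at another). Proteases and inhibitors that act on or with fibulins had 0 of 10 measured genes called and a median of 0.06 (0.15 with an offset of 0). Adamts1, a protease for which fibulin-1 is a cofactor, had 11628 and 11219 units in the arch, against 16563 and 17220 in the thoracic aorta (−0.54 ± 0.05, and −0.09 at another probe). Adamts5 measured 0.41 ± 0.08 (0.10 at another probe) and Mmp3 −0.38 ± 0.08. The regions did not overlap for Adamts1, yet neither array reached the 1.5-fold line.

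**Figure D5:**
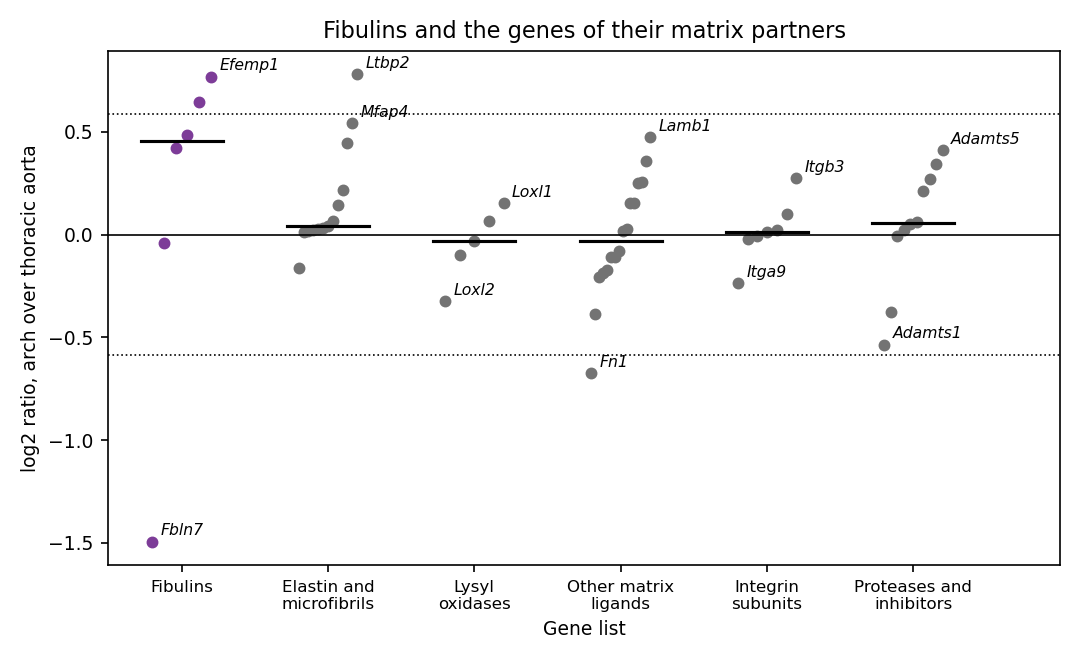
Log2 ratio of arch over thoracic aorta of each measured gene, by list (brightest probe), with the list's median as a black bar and dotted lines at 1.5-fold. The fibulins span from −1.49 to 0.77 around a median of 0.45, while the medians of the partner lists lie between −0.03 and 0.06.

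Markers of other cells of the vessel surroundings differed between the pools beside the fibulins. In such bulk RNA, fewer cells of a type and less RNA per cell cannot be told apart. All 8 mesothelial markers were above 0 (median 0.39), and their summed processed signal was 27689 and 30464 units in the arch, against 18631 and 20185 in the thoracic aorta. Adipocyte markers were above 0 in 7 of 8 (median 0.40, 3 called higher), with sums of 473077 and 455860 in the arch, against 351960 and 368218, and brown adipocyte markers in 6 of 8 (median 0.58, 4 called higher), with 179434 and 176253 in the arch, against 106398 and 113145 in the thoracic aorta. Chondrocyte markers were above 0 in 7 of 8 measured genes of 10 (median 0.13), with 105979 and 110945 in the arch, against 89184 and 84624 in the thoracic aorta. Of these, 1 was called higher, the cytokine-like gene Cytl1 (1.95, rank 2 from the highest), and without it the sums were 84678 and 88524 in the arch, against 84464 and 79487. Col9a1 and Matn3 were not measured. Cardiomyocyte markers had 3 of 9 measured genes called higher (median 0.24), among them the atrial myosin light chain gene Myl7 (2.33, rank 1 from the highest) and the troponin gene Tnnt2 (1.59, rank 5). Their sums overlapped, at 242048 and 246945 in the arch and 223149 and 258416 in the thoracic aorta, and were mostly the actin gene Actc1 (−0.05). Without Actc1 the sums were 27447 and 29066 in the arch, against 11336 and 12989 in the thoracic aorta. The genes left out of these sums were chosen after their values were seen. The mesothelial, adipocyte, brown adipocyte and chondrocyte sums, and the cardiomyocyte sums without Actc1, were higher in the arch on both arrays. So were the endothelial sums (7742 and 8226 units, against 7079 and 7317) and the Schwann cell sums (78219 and 79760, against 74097 and 72916). The Schwann cell sums were mostly Pmp22 (66430 and 67592 in the arch, against 63639 and 60440), so they rest on that gene. Of the 7 Schwann cell markers 5 were above 0 and 2 below, and S100b, Sox10 and Gfap differed in sign between the arrays. The adventitial fibroblast sums below were also higher on both arrays with Gsn included. Efemp1, Fbln5, Fbln1 and Fbln2 were higher there too, and the part of these cells in the fibulin ratios was not tested.

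Adventitial fibroblast markers were above 0 in 6 of 10 (median 0.04, range −0.30 to 0.55), with sums of 2369726 and 2415951 in the arch, against 1978294 and 2320092 in the thoracic aorta. Without Gsn, the gelsolin gene (0.48 ± 0.29), left out after its values were seen, the sums overlapped, at 1383252 and 1431247 in the arch and 1373274 and 1446898 in the thoracic aorta. Macrophage markers were below 0 in all 9 on the mean of the arrays (median −0.16, range −0.35 to −0.02). Their sums were 380822 and 347204 in the arch, against 442820 and 460755 in the thoracic aorta. Fcgr1 differed in sign between the arrays (0.03 and −0.16), and the kept Csf1r probes ran from −0.08 to 0.09. Smooth muscle sums were lower in the arch within each array, at 2813879 against 2939201 on array 1 and 2584172 against 2668375 on array 2. Across the arrays the ranges overlapped, and 7 of the 10 markers were below 0 and 3 above. The part of these cells in the ratio of Fbln7 was not tested either.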

How the data were processed

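Scans of the Agilent whole mouse genome arrays were read, per the submitters' processing notes, by Agilent Feature Extraction 9.1.1.1. Per the file headers, the deposited scanner files give intensity per spot and dye, as mean signals, local backgrounds and processed signals, and a log10 ratio of processed Cy5 over Cy3 with its error, a score of the software's error model. That ratio equals the ratio of the processed signals in 90.4% and 91.3% of gene spots (tolerance 0.001) and differs in the rest, the dimmest Fbln5 probe among them, where it is 0. The authors' value table holds this log10 ratio with the arch on top (equal in 99.9% of features per array, tolerance 1e-06). Directions were set by the dyes that the labels state. No build is named in the array files.

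From the intensities, background was corrected by normexp (offset 50) and ratios were normalised by loess within each array (limma 3.58.1, R 4.3.3), with control spots at weight 0. Of 41534 gene spots, 20 and 4 outliers were left out. A probe was kept if both arrays marked it as well above background for the same region (30521 of 41174), and a gene took its brightest kept probe. Names came from RefSeq: an accession named 22864 probes, a symbol or synonym 10230, and 8080 went by the name in the files. Exchanging dyes between the same pools gives 1 replicate, so nothing was tested. The call rule was checked on simulated data. The members, gene lists and rules were chosen with earlier results of these data known. Named genes were all members, up to 3 genes per partner list with the largest ratios, the 3 genes nearest to each called fibulin, and cell type markers beside a result. Elastin was added after its values were seen. Bcan, Hspg2, Hmcn2 and Mmp12 of the partner lists were not measured here. Mmp12 was on the array and failed the filter on dim signals. Of the 19 other matrix ligands 17 were found on the array, so Bcan, Hspg2 and Hmcn2 were not all too dim. A Schwann cell list had a median log2 ratio of 0.05 over 7 genes.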

Additional observations from a re-analysis of the deposited data

How the results depend on the processing

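Fbln7 was called lower in the arch under all 11 alternatives. Against 55 genes called higher and 49 lower, the counts were 117 and 104 with an offset of 0, then 152 and 128 with either the scanner's own ratios or the authors' deposited values. They were 28 and 75 with median centring, 134 and 112 by a 1.3-fold rule, and 9 and 15 by a 2-fold rule. Of the calls, 52.9% were higher in the arch, and 27.2% with median centring. Against 1 fibulin called higher (Efemp1), median centring and the 2-fold rule gave 0, array 1 alone 2 (Efemp1 and Fbln5) and the 1.3-fold rule 4 (Efemp1, Fbln1, Fbln2 and Fbln5). The other settings (the mean over kept probes, no filter on dim probes, a filter on both regions and array 2 alone) moved neither fibulin count. No called fibulin changed sign. The mean over probes lowered Fbln5 to 0.36, and array 1 alone turned Efemp2 to 0.08. The cause of the lower fibulin values with median centring was not tested. The arrays repeat 1 pool per region, so differences between mice are not covered by any of these values, and signal over background limits Hmcn1 and the dim Fbln5 probes.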

Other observations

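The genes beside the fibulins on their chromosomes gave no ratio past the rule. The set was the nearest 2 protein-coding genes on each side in RefSeq's order, chosen after the fibulin values were seen. Of 28 neighbours 23 were measured and 0 were called, where 0.487% of all 21367 genes were called. Ratios ran from −0.30 (Fibp, beside Efemp2) to 0.07 (Trip11, beside Fbln5), and 93.1% of all genes lay within 0.2 of 0. A ratio near 0 is therefore usual on these arrays, and nothing is read from the neighbours. Next to Fbln7, Tmem87b measured −0.11 ± 0.09, the receptor kinase Mertk −0.10 ± 0.10 and Zc3h6 −0.12 ± 0.08, and Zc3h8 was not measured. Next to Efemp1, Pnpt1 measured −0.15 ± 0.01, Ppp4r3b −0.10 ± 0.04, Ccdc85a −0.04 ± 0.02 and Vrk2 −0.02 ± 0.03. The Fbln7 and Efemp1 ratios thus stood beside neighbours with ratios near 0, and none of the neighbours of Efemp1 had a mean above 0.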
